A study of Mus musculus with 6 samples.

Results

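The 6 clonal MIN6 β cell lines of the study were divided into clone set A, which holds Control 1, Control 2 and *Snd1* KO 1, and clone set B, which holds Control 3, *Snd1* KO 2 and *Snd1* KO 3. The sets cross the genotypes and take in 6 of 6 libraries, with 3 clones in each set. The division is not a group of the study. It was chosen from the expression values of these same libraries, because it parts the clones further than genotype does, so every difference between the sets is given as a description and none was tested. Of 53801 mouse genes listed, 17823 had a mean of at least 0.5 TPM over the 6 clones and were compared. At the edge of that filter the gene model *Gm3693*, at a mean of 0.50 TPM, was kept and *Rps18-ps2*, at 0.4997 TPM, was left out.

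MIN6 is a mouse insulinoma line, that is, an insulin-producing tumor cell line used as a model of the β cell. All 6 clones derive from MIN6 cells that express the nuclease Cas9, received a guide RNA by lentivirus, and were selected with puromycin and expanded from single cells. In control clones Cas9 was directed to intron 2 of *Snd1*, and in *Snd1* KO clones to exon 2. Each line is 1 clone and gave 1 library, so an effect of the edit and the history of a clone cannot be told apart within any single line. Levels are in TPM, the length-corrected share of reads that a gene takes, on a scale that sums to 1000000 in each library. Values below are given in the order Control 1, Control 2 and *Snd1* KO 1 for set A, and Control 3, *Snd1* KO 2 and *Snd1* KO 3 for set B. A difference is the mean of set B minus the mean of set A on the scale log2(TPM + 1), which understates changes of genes with low TPM.

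The libraries held between 25865183 and 33055380 reads on genes as recovered from the TPM steps, and the shallowest was that of Control 3. These totals are above the approximate number of reads per library that the paper states. Whether a recovered read is a single end or a pair was not tested. RNA of the mitochondrial genome made up 9.17% of all TPM in Control 3 and between 13.6% and 16.4% in the other 5 clones. The median gene lay 0.11 lower on the log2 scale in Control 3 than its mean over the clones, against at most 0.05 in size in the others. The part of these library differences in the results was not tested. *Snd1*, which encodes a coregulator with staphylococcal nuclease and Tudor domains, measured 113, 119 and 14.7 TPM in set A and 112, 57.1 and 19.9 TPM in set B. All 3 *Snd1* KO clones were below all 3 control clones, and the sets overlapped in *Snd1*.

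β cells make insulin as a precursor that folds in the endoplasmic reticulum (ER), is packed with zinc into dense granules and is released when glucose metabolism closes potassium channels and lets calcium enter. Transcription factors such as PDX1, MAFA and NKX6-1 maintain this program, and the ER carries a heavy load of secretory protein that the unfolded protein response adjusts. Lines expanded from single cells of one culture are known to differ in such programs.

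The name of clonal states was checked against the distances between clones. The root mean square difference over the 17823 genes was smallest for Control 1 with Control 2, at 0.480, followed by *Snd1* KO 2 with *Snd1* KO 3, at 0.561. *Snd1* KO 1 was 0.710 and 0.727 away from the other clones of its own set and 0.696 away from Control 3, its nearest clone, which is in set B. Control 3 was 0.651 away from *Snd1* KO 3 and 0.693 from *Snd1* KO 2, but 0.690 from Control 1. Distances averaged 0.637 ± 0.097 within sets (SD, n = 6 pairs) and 0.725 ± 0.047 between sets (SD, n = 9 pairs), compared with 0.655 ± 0.111 within and 0.713 ± 0.049 between genotypes. The set split held 31.3% of the variance between clones and the genotype split 27.1%. The sets are therefore not compact groups of like clones, and they are called A and B rather than states.

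**Figure D1:**
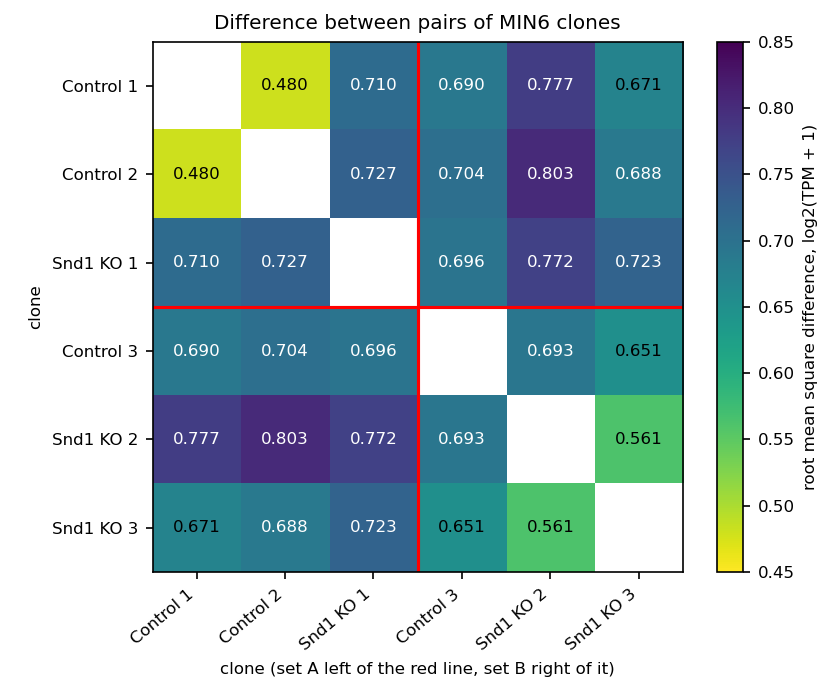
Root mean square difference in log2(TPM + 1) over 17823 genes between each pair of clones, with set A and set B parted by red lines and darker cells for larger differences. The pair Control 1 and Control 2 (0.480) and the pair *Snd1* KO 2 and *Snd1* KO 3 (0.561) are the closest, whereas *Snd1* KO 1 is closer to Control 3 (0.696) than to either clone of its own set.

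To see what makes up the set difference, it was measured in each genotype, over clones that are not shared: within control, as Control 3 minus the mean of Control 1 and Control 2, and within *Snd1* KO, as the mean of *Snd1* KO 2 and *Snd1* KO 3 minus *Snd1* KO 1. Pearson's correlation of these differences was 0.079 across the 17823 genes, which share libraries and are no independent replicates, and 54.2% of genes had the same sign. Over the 11368 genes at a mean of 5 TPM or more the correlation was 0.113. A difference of at least 1 in size was found for 1677 genes within control and for 2058 within *Snd1* KO. The direction was the same within both genotypes for 271 of these genes and opposite for 239. *Qpct*, which encodes glutaminyl cyclase, shows the opposite kind: it measured 37.4, 69.0 and 0 TPM in set A and 0.105, 43.8 and 92.3 TPM in set B, near 0 only in *Snd1* KO 1 and Control 3.

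All 3 values of set B lay above all 3 of set A for 1762 genes, or 9.89% of those compared, and below them for 2659 genes, or 14.9%. With a difference of at least 1 as well, 308 genes were higher in set B, or 1.73%, and 268 were lower, or 1.5%. Of the higher genes 134 were protein coding and 122 averaged 5 TPM or more, and of the lower genes 191 and 142. The same criterion between the genotypes held for 235 genes higher and 93 lower in *Snd1* KO. *Snd1* KO 1 was the clone of set A nearest to set B for 119 of the 308 higher and 151 of the 268 lower genes. Without *Snd1* KO 1 the counts were 539 and 521, and without Control 3 they were 675 and 391. In bulk RNA, fewer cells of a type and less RNA per cell cannot be told apart.

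**Figure D2:**
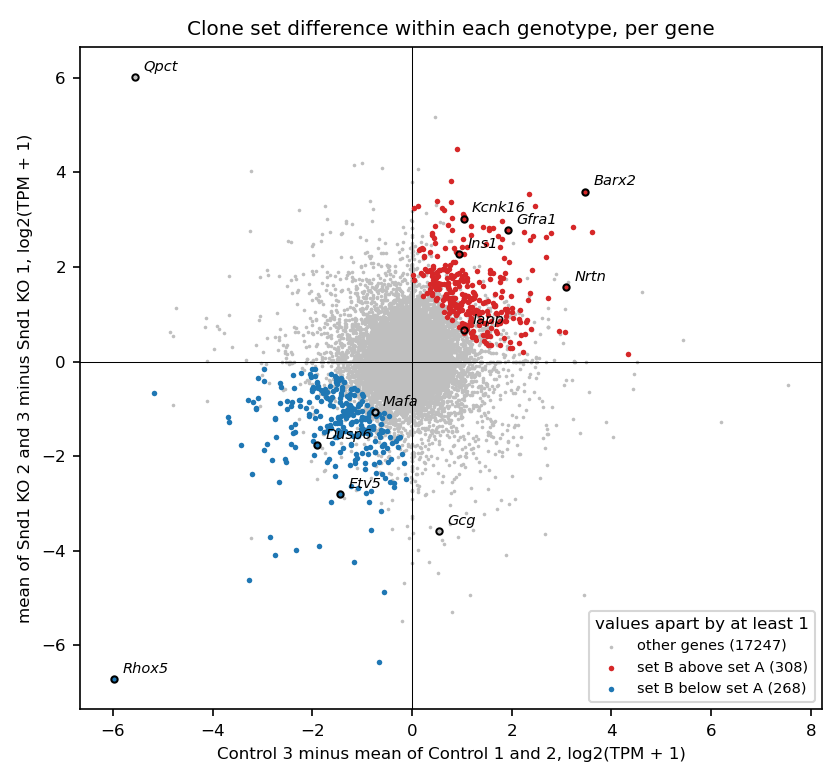
Each point is 1 of 17823 genes, with the difference within control on the horizontal axis and the difference within *Snd1* KO on the vertical axis, both in log2(TPM + 1). The 308 genes with set B above set A by at least 1 (red) and the 268 below it (blue) lie in matching quadrants because the criterion puts them there, while the remaining genes form a round cloud and *Qpct* and *Gcg* lie in the opposite quadrants.

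As to cell identity, all 12 β cell markers passed the filter. Their summed level ran from 47866 to 52917 TPM in set A and from 73144 to 89386 TPM in set B. *Iapp* and *Ins1* made most of that gap: of the 12 markers 2 were higher and 1 lower without overlap, close to the 9.89% and 14.9% of all genes, 5 had a lower mean in set B, and the median difference was 0.13. None of the acinar, duct, endothelial, delta, PP or epsilon markers passed, and their sums reached at most 2.42 TPM, that of *Sst* and *Hhex* in *Snd1* KO 1. The 5 mesenchymal markers summed to 4.54 and 5.31 TPM in Control 1 and Control 2 and to at most 0.892 TPM elsewhere, and the 3 immune markers to 6.49 and 6.04 TPM in those clones and to at most 3.07 TPM elsewhere. The gap in the immune sum came from *Lyz2*, at 3.71 and 5.03 TPM in those clones and at most 0.459 TPM elsewhere. *Cd68* did not follow it and was lowest in Control 2, at 0.967 TPM. *Hhex*, *Cpa1* and *Ptf1a* were at 0 in every clone. The alpha cell gene *Gcg*, which encodes glucagon, overlapped between the sets at 267, 174 and 1100 TPM in set A and 314, 55.2 and 148 TPM in set B, with the high value in *Snd1* KO 1. Of the 6 alpha markers 3 passed, *Gcg*, *Irx1* and *Pou3f4*, and they did not share a direction. *Irx1* overlapped with a higher mean in set B, at 0, 0 and 0.105 TPM against 0.0547, 1.58 and 3.30 TPM. *Pou3f4* was lower in every clone of set B.

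Among the peptide hormones the insulin gene *Ins1* set the groups apart. *Ins1* (ENSMUSG00000035804, GRCm38 chromosome 19, 52264297 to 52265476) measured 2429, 4086 and 2059 TPM in set A and 6033, 11945 and 8219 TPM in set B. The lowest clone of set B, Control 3, was above the highest of set A, Control 2. The means were 2858 ± 1079 and 8733 ± 2989 TPM (SD, n = 3), a ratio of 3.06 and a difference of 1.62, made up of 0.94 within control and 2.27 within *Snd1* KO. *Iapp*, which encodes the amyloid peptide secreted with insulin, had 22390, 25567 and 29417 TPM in set A and 49144, 50246 and 42914 TPM in set B, a ratio of means of 1.84. In contrast, *Ins2* overlapped at 14480, 13976 and 12195 TPM in set A and 18632, 15716 and 11194 TPM in set B. The mouse insulin genes are closely related copies, and reads that match both could have been split or dropped in counting, so the values of each are uncertain. Of 30 islet and gut peptide hormones 15 were compared, *Ins1* and *Iapp* were the members higher in set B without overlap, and no member was lower without overlap, beside 9.89% higher and 14.9% lower over all genes. The list median was −0.56, beside −0.02 over all genes, with 0.39 within control and −0.83 within *Snd1* KO. It was −1.08 without Control 3 and −0.22 without *Snd1* KO 1.

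The bases upstream of *Ins1* are shown because it is the hormone gene with the largest difference whose sets did not overlap. They are the 250 bases before its RefSeq start, chr19:52264047-52264296 on the plus strand of GRCm38.p6. Capitals mark 2 E-box matches (CANNTG) and 3 matches to the A-box core (TAAT), searched on both strands.
Ins1: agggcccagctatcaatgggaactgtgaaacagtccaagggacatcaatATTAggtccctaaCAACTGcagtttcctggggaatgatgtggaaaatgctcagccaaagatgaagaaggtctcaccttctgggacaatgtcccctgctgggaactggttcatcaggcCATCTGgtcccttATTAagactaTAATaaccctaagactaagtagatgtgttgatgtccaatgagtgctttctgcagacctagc
Motifs this short are common, since CANNTG occurred in 72.1% and TAAT in 58.3% of 27025 RefSeq promoters of 300 bases. The matches describe letters and not bound sites.

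**Figure D3:**
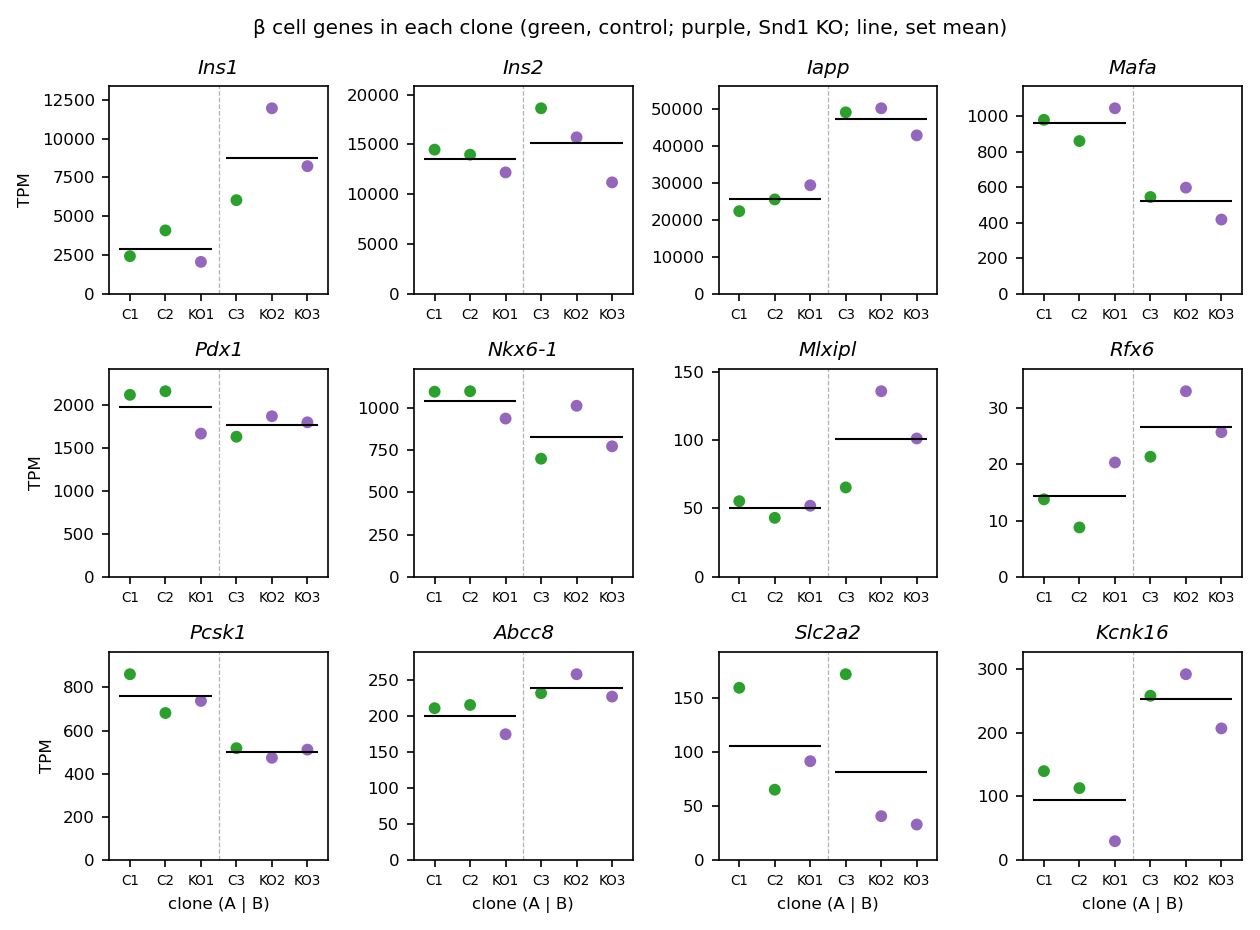
TPM of 12 β cell genes in each clone, with control clones in green (C), *Snd1* KO clones in purple (KO), the sets parted by a dashed line and a black line at each set mean. *Ins1*, *Iapp*, *Mlxipl*, *Rfx6*, *Abcc8* and *Kcnk16* are higher and *Mafa* and *Pcsk1* lower in every clone of set B, whereas *Ins2*, *Pdx1*, *Nkx6-1* and *Slc2a2* overlap.

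Single β cell transcription factors differed, but the list did not depart from genes in general. Of 21 factors 19 were compared, and 2 were higher and 3 lower in set B without overlap, beside 9.89% higher and 14.9% lower over all genes, with a median of −0.01. *Mafa*, an activator of the insulin genes, measured 980, 861 and 1045 TPM in set A and 545, 598 and 419 TPM in set B. Every clone of set B was below every clone of set A, with means of 962 ± 93.5 and 521 ± 92.3 TPM (SD, n = 3) and a difference of −0.90. *Mlxipl*, which encodes the glucose-responsive factor ChREBP, had 55.3, 43.1 and 52.0 TPM in set A and 65.3, 136 and 101 TPM in set B. *Rfx6*, a factor of endocrine differentiation, was also higher, at 13.8, 8.79 and 20.4 TPM against 21.4, 33.0 and 25.7 TPM, although *Snd1* KO 1 and Control 3 were close. *St18*, a zinc finger factor, was also lower, with a difference of −0.59. *Pdx1*, the factor that SND1 binds, overlapped at 2122, 2164 and 1670 TPM in set A and 1634, 1873 and 1802 TPM in set B, and *Nkx6-1* overlapped with a difference of −0.35.

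For glucose sensing, 19 of 22 genes were compared, of which 2 were higher and 3 lower in set B without overlap, close to the 9.89% and 14.9% of all genes. *Abcc8*, a subunit of the ATP-sensitive potassium channel, had 211, 216 and 175 TPM in set A and 232, 258 and 227 TPM in set B, a difference of 0.26. *Kcnj11*, the gene of the partner subunit, differed by 0.13 with overlap. The glucose transporter gene *Slc2a2* varied within both sets, at 160, 65.0 and 91.5 TPM in set A and 172, 40.5 and 32.8 TPM in set B. *Me1* and *Gpd2*, enzymes that carry reducing equivalents, were lower, with differences of −0.61 and −0.52.

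Several potassium channel genes were higher in set B. Of 94 genes whose symbol begins with Kcn 48 were compared, and 12 were higher and 4 lower in set B without overlap, beside 9.89% and 14.9% of all genes. With a difference of at least 1 there were 8 higher and 0 lower, beside 1.73% and 1.5% of all genes. The list median was 0.18, with −0.07 within control and 0.36 within *Snd1* KO, and 0.28 without *Snd1* KO 1. This list was put together after values had been seen. *Kcnk16*, a background channel of islet cells, measured 140, 113 and 29.4 TPM in set A and 258, 292 and 207 TPM in set B. Its lowest clone was *Snd1* KO 1, and the ratio of means was 2.69. The difference was 1.67, and 0.99 without *Snd1* KO 1. *Kcnd2*, a channel of the A-type current, had 4.37, 3.67 and 8.88 TPM against 16.2, 17.6 and 34.3 TPM. *Kcnf1*, a silent subunit, had 17.4, 21.3 and 9.99 TPM against 55.3, 44.9 and 80.6 TPM. The differences of *Kcnq3*, an M-current subunit, and *Kcnc1*, a fast delayed rectifier, were 2.14 and 1.70. *Kcnc1* had 2.97, 2.60 and 1.25 TPM against 4.01, 8.28 and 22.8 TPM, and its difference was 1.10 without *Snd1* KO 3. *Kcnk1* overlapped, at 0.788, 11.5 and 45.9 TPM in set A and 38.0, 24.2 and 42.4 TPM in set B. The list of 34 voltage-gated channels compared, which shares members with the Kcn genes, held 5 higher and 2 lower without overlap, and the sodium channel gene *Scn9a* was lower by at least 1, from 3.10, 1.15 and 2.20 TPM to 0.0577, 0.132 and 0.766 TPM.

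Genes of granule release and peptide processing stood apart about as often as genes in general. Of 40 exocytosis genes compared 4 were higher and 6 lower without overlap, beside 9.89% higher and 14.9% lower over all genes, with a median of −0.13. *Syt5*, a calcium sensor of vesicle fusion, measured 159, 144 and 213 TPM in set A and 108, 39.1 and 60.0 TPM in set B, so that all of set B was lower. *Sytl5*, a Rab27 effector, had a difference of −1.14. *Snap25*, a core fusion protein, had 182, 165 and 152 TPM in set A and 92.6, 105 and 131 TPM in set B. The higher members *Syt7*, *Rph3al*, *Cplx2* and *Vamp3* differed by between 0.32 and 0.70. *Pcsk1*, the proinsulin convertase, was at 861, 681 and 737 TPM in set A and 518, 473 and 511 TPM in set B, a difference of −0.59. The other prohormone processing genes gave 1 higher and 1 lower member without overlap among the 12 compared, namely *Pcsk4* and *Furin*. In the granins and granule membrane list 4 of 14 members were lower, 0 higher. *Ptprn*, a granule autoantigen, was among them at 1461, 1626 and 1238 TPM against 1193, 539 and 827 TPM. Its fellow member *Vgf* overlapped because Control 3 had 229 TPM, as much as the 228 to 235 TPM of set A, while *Snd1* KO 2 and *Snd1* KO 3 had 51.8 and 82.9 TPM.

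Receptors and cAMP signaling showed mixed directions. Of 25 hormone receptors compared 6 were higher and 1 was lower without overlap, beside 9.89% higher and 14.9% lower over all genes. *Vipr1*, a receptor for vasoactive intestinal peptide, measured 50.6, 40.6 and 110 TPM in set A and 128, 153 and 138 TPM in set B. *Chrm4*, a muscarinic receptor, had 3.76, 3.70 and 6.73 TPM against 9.12, 14.1 and 9.38 TPM. In both genes *Snd1* KO 1 was the clone of set A nearest to set B. The free fatty acid receptor genes *Ffar1*, *Ffar2* and *Ffar3* were higher by 0.59, 0.54 and 0.77. *Glp1r*, the incretin receptor gene, overlapped, with 1068, 964 and 432 TPM in set A and 494, 384 and 414 TPM in set B. Among 40 genes of cAMP and G-protein signaling 3 were higher and 9 lower without overlap, beside 9.89% higher and 14.9% lower over all genes. *Pde4b*, a cAMP phosphodiesterase, had 32.4, 25.6 and 17.7 TPM in set A and 11.9, 6.03 and 7.54 TPM in set B. *Pde10a*, a dual-substrate phosphodiesterase, was at 18.5, 16.4 and 18.5 TPM against 9.04, 4.76 and 8.05 TPM, and *Rgs17* at 15.5, 18.0 and 17.4 TPM against 7.26, 6.97 and 8.57 TPM. In these genes every clone of set B was below every clone of set A. *Prkar1a*, a regulatory subunit of protein kinase A, differed by −0.84, while *Rgs11* and the adenylate cyclase gene *Adcy5* were higher by 1.29 and 1.05. *Adcy5* had 0.473, 0.210 and 0.470 TPM against 1.27, 0.746 and 4.93 TPM, and its difference was 0.53 without *Snd1* KO 3.

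Genes of ER chaperones and the unfolded protein response were lower in set B. All 28 genes were compared, 27 had a lower mean in set B, 17 were lower without overlap and 0 were higher, beside 14.9% and 9.89% of all genes. The median was −0.52, with −0.13 within control and −0.87 within *Snd1* KO. Over all genes the medians were −0.12 within control and 0.03 within *Snd1* KO, so the list as a whole departed from genes in general within *Snd1* KO and not within control. Of the 28 genes 21 were below 0 in both genotypes, beside 5611 of all 17823 genes. *Snd1* KO 1 had the highest median of the list, 0.44 above the mean of the clones, and *Snd1* KO 2 the lowest at −0.56. *Hspa5*, the chaperone BiP, measured 1287, 1184 and 1469 TPM in set A and 1178, 646 and 906 TPM in set B. Control 3 was within 10 TPM of Control 2, so the separation in *Hspa5* came from the *Snd1* KO clones. *Hyou1*, a large chaperone, had 241, 236 and 304 TPM in set A and 206, 80.5 and 134 TPM in set B. *Dnajb9*, a cochaperone of BiP, was the member lower by at least 1, with 510, 460 and 619 TPM against 266, 206 and 324 TPM. It differed in both genotypes, by −0.86 and −1.26. *Wfs1*, an ER membrane protein whose loss causes diabetes, had 90, 89.7 and 82.6 TPM in set A and 52.9, 45.1 and 57.3 TPM in set B, again with similar sizes of −0.75 and −0.69. *Hsp90b1* and *Manf* were highest in *Snd1* KO 1, at 2331 and 429 TPM, and overlapped because Control 1 and Control 2 were below a clone of set B. *Xbp1*, a transcription factor of the response, overlapped at 230, 226 and 232 TPM in set A and 235, 154 and 195 TPM in set B.

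The ER stress response element, searched on both strands as CCAAT followed by CCACG after 9 bases of any kind, was found in 9 of the 24 list members with a RefSeq promoter, or 37.5%, and in 35 of 27025 promoters of 300 bases, or 0.130%. Members with a match were *Calr*, *Canx*, *Creld2*, *Derl3*, *Dnajc3*, *Hsp90b1*, *Hspa5*, *Pdia6* and *Syvn1*. Of these, 7 were lower in set B without overlap, beside 17 of the 28 genes of the whole list and 14.9% of all genes. Their median difference was −0.60, and that of members without a match −0.52. Shown to let these promoters be compared are the 250 bases upstream of 4 of them in GRCm38.p6, with the element in capitals. *Hspa5* lies at chr2:34771840-34772089 on the plus strand, *Calr* at chr8:84846932-84847181 on the minus strand, *Derl3* at chr10:75893148-75893397 on the plus strand and *Hsp90b1* at chr10:86705445-86705694 on the minus strand.
Hspa5: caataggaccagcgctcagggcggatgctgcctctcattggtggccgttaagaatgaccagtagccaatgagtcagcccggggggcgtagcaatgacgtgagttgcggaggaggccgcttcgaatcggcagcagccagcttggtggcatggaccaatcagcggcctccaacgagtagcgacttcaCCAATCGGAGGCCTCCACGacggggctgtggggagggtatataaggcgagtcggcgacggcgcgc
Calr: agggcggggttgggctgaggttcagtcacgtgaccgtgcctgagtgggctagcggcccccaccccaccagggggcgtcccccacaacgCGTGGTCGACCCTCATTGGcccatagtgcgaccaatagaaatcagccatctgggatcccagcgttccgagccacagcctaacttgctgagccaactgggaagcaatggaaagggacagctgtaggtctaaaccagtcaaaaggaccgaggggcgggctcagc
Derl3: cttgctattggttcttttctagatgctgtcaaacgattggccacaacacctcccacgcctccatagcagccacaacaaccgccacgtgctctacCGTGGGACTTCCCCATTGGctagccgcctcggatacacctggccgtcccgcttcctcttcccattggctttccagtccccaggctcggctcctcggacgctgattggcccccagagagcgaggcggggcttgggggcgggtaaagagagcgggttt
Hsp90b1: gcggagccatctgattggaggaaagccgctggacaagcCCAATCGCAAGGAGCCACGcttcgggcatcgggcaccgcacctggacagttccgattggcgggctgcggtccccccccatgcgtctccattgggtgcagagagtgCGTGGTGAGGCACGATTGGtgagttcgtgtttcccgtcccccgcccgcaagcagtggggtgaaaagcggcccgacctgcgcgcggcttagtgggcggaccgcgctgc
*Hsp90b1* held 2 matches and the others 1 each. *Calr*, the calreticulin gene, measured 1664, 1596 and 2073 TPM in set A and 1476, 880 and 1218 TPM in set B. *Derl3*, a component of ER-associated degradation, had 6.2, 4.65 and 4.71 TPM against 2.82, 2.15 and 2.56 TPM. *Hsp90b1* had the smallest difference of these 4 genes, −0.31. Whether the number of matches bears on the difference was not tested.

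Targets of ATF4, the factor of the amino acid and integrated stress response, had a median of 0.32, with 0.05 within control and 0.89 within *Snd1* KO. Of 25 genes compared 22 had a higher mean in set B, but 1 was higher without overlap, *Atf3*, beside 9.89% of all genes. The difference lay mainly in *Snd1* KO 1, whose list median was 0.81 below the mean of the clones, and without that clone the list median was −0.02. *Trib3*, a pseudokinase, had 37.9 and 48.4 TPM in Control 1 and Control 2, 5.69 TPM in *Snd1* KO 1, and 48.5, 34.4 and 41.1 TPM in set B. *Ddit3*, which encodes CHOP, had 59.3, 65.9 and 22.1 TPM against 58.8, 53.7 and 60.6 TPM.

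**Figure D4:**
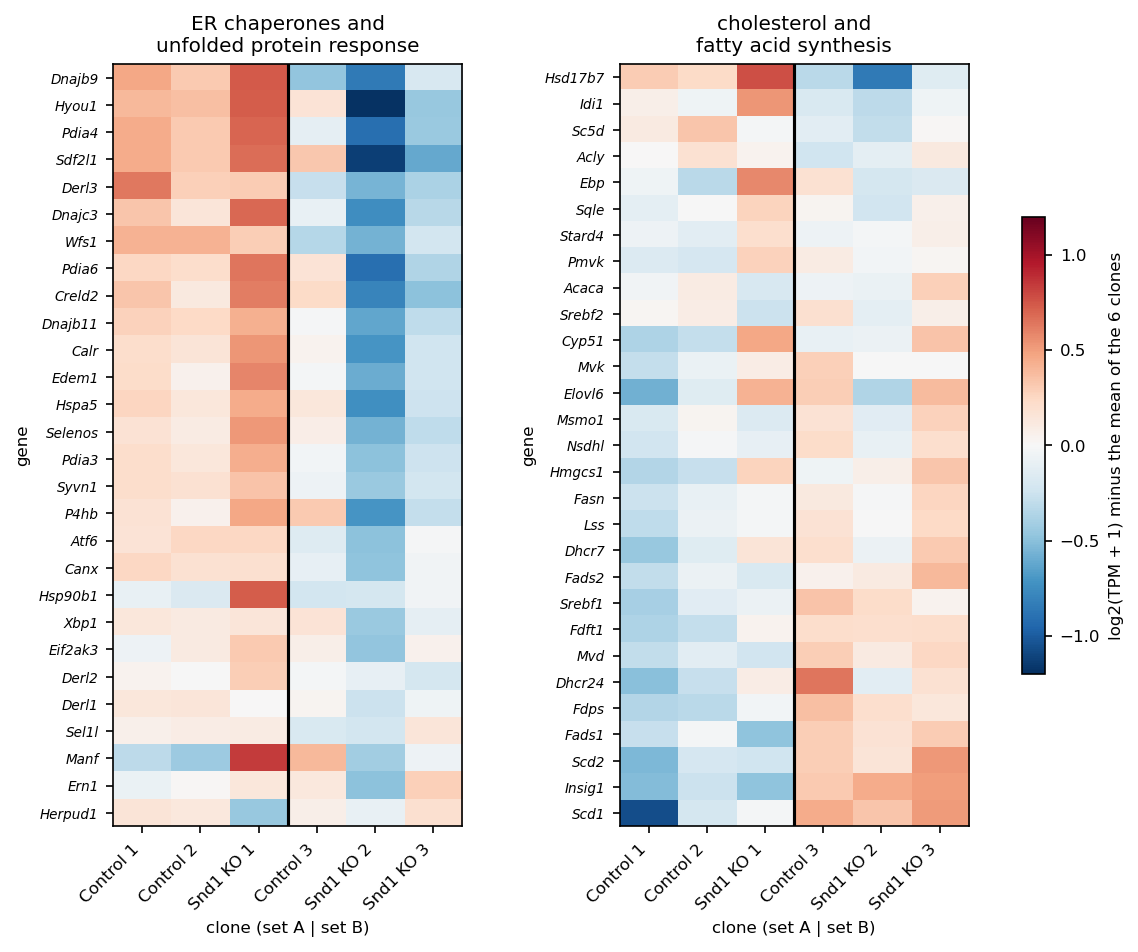
Level of each gene in each clone relative to the mean of the 6 clones, in log2(TPM + 1), for 28 ER genes (left) and 29 of the 32 lipid synthesis genes (right) ordered by the difference between sets, with red above and blue below the gene mean. By the list median, ER genes are lowest in *Snd1* KO 2 and *Snd1* KO 3 and highest in *Snd1* KO 1, with Control 3 near the mean of the clones, although single genes such as *Wfs1* and *Derl3* are ordered otherwise, and lipid genes at the lower end of the panel are higher in all 3 clones of set B.

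Part of the lipid synthesis genes were higher in set B. All 32 genes of cholesterol and fatty acid synthesis were compared, 13 were higher and 1 was lower without overlap, beside 9.89% and 14.9% of all genes. The median was 0.23, with 0.35 within control and 0.14 within *Snd1* KO, and it was 0.38 without *Snd1* KO 1 and 0.15 without Control 1. Relative to the mean of the clones the list median was −0.02 in both *Snd1* KO 1 and *Snd1* KO 2, −0.29 and −0.13 in Control 1 and Control 2, and 0.18 and 0.22 in Control 3 and *Snd1* KO 3. *Insig1*, a sterol-sensing brake on SREBP factors, had 276, 332 and 284 TPM against 495, 541 and 562 TPM, a ratio of means of 1.79. *Scd1*, a fatty acid desaturase, was at 218, 394 and 450 TPM against 624, 578 and 654 TPM, and its relative *Scd2* at 2099, 2649 and 2579 TPM against 3743, 3377 and 4375 TPM. All 3 genes were higher in every clone of set B. *Srebf1*, which encodes an activating SREBP factor, had 40.5, 48.6 and 50.9 TPM against 68.3, 62.8 and 55.4 TPM, a difference of 0.41. *Hsd17b7* was the lower member, with a difference of −0.88. A sterol response element, searched as TCACNCCAC on both strands, was found in 1 of 21 promoters of the list, that of *Hmgcs1*, and in 1.22% of all promoters.

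Zinc handling was mostly lower in set B. Of 16 genes compared 13 had a lower mean, and 8 were lower and 1 higher without overlap, beside 14.9% lower and 9.89% higher over all genes. *Slc39a8*, which brings zinc into the cell, measured 109, 103 and 170 TPM in set A and 67.2, 43.2 and 33.7 TPM in set B. Its importer relatives *Slc39a14* and *Slc39a10* and the exporters *Slc30a4* and *Slc30a1* differed by between −0.67 and −0.54. *Slc30a8*, the transporter that loads insulin granules with zinc, did not follow the sets. It had 215 and 191 TPM in Control 1 and Control 2 but 809 TPM in *Snd1* KO 1, against 744, 1005 and 779 TPM in set B. *Mt1*, a metallothionein, was the higher member, at 191, 163 and 109 TPM against 229, 257 and 225 TPM.

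Single ligand, coreceptor and feedback genes of growth factor signaling differed between the sets. The next 3 lists, of ERK feedback, GDNF and neurotrophin, and catecholamine genes, were added after values had been seen. *Nrtn*, the GDNF family ligand neurturin, measured 5.63, 3.59 and 11.2 TPM in set A and 45.8, 44.4 and 28.1 TPM in set B. *Gfra1*, a coreceptor of the same family, had 0.689, 0.984 and 1.19 TPM against 5.96, 10.3 and 19.2 TPM. In both genes every clone of set B was above every clone of set A. *Ret*, the signaling partner of the GFRα coreceptors, overlapped, at 0.123, 0.111 and 79.3 TPM in set A and 3.13, 11.3 and 0.792 TPM in set B. Of 10 genes of the GDNF and neurotrophin list compared 4 were higher and 1 lower without overlap, beside 9.89% and 14.9% of all genes. The list median was 0.96, with 1.80 within control and 0.49 within *Snd1* KO. For *Snd1* KO minus control the median was 1.06, so this list differed as much between the genotypes. The set median was 0.60 without Control 2 and 1.89 without *Snd1* KO 1. It was 2.21 with a pseudocount of 0.1 and 2.46 over members averaging 5 TPM or more. In the ERK feedback list, genes that dampen or report the ERK cascade, 4 of 14 were lower and 0 higher without overlap, beside 14.9% and 9.89% of all genes. The list differed as much between the genotypes, with a median of −0.64 for *Snd1* KO minus control beside −0.53 for the sets, and 9 of its genes had an unadjusted genotype p under 0.05 in limma, beside 1419 of all 17823 genes, and 0 an adjusted one. Within control the median of the list was −0.51 and within *Snd1* KO −0.15, beside −0.12 and 0.03 over all genes. The set median of the list was −0.35 without Control 2 and −0.36 without Control 1. *Etv5*, a transcription factor induced by ERK signaling, had 45.4, 47.1 and 22.8 TPM in set A and 16.3, 1.16 and 4.43 TPM in set B. *Dusp6*, a phosphatase of ERK, had 22.4, 20.6 and 6.79 TPM against 4.97, 0.948 and 1.69 TPM. In both genes *Snd1* KO 1 and Control 3 lay between the other clones. *Spry4*, an inhibitor of the cascade, differed by −2.43.

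Of 8 catecholamine genes compared 2 were higher and 3 lower without overlap, beside 9.89% higher and 14.9% lower over all genes, with a median of 0.02. *Th*, the rate-limiting enzyme of synthesis, measured 82.2, 79.2 and 21.9 TPM in set A and 109, 137 and 144 TPM in set B. *Dbh*, which makes noradrenaline from dopamine, had 7.22, 4.20 and 3.58 TPM against 18.0, 15.3 and 59.7 TPM. The difference of *Th* was 1.28, and 0.67 without *Snd1* KO 1. The degrading enzyme *Maob* was lower, at 341, 325 and 356 TPM against 175, 207 and 174 TPM, and the adjacent *Maoa* differed by −0.66. The synthesis genes did not share a direction, since *Ddc*, the decarboxylase, overlapped with a difference of 0.22 and *Gch1*, which makes the cofactor of the first step, was lower by −0.49.

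Some genes that respond quickly to stimulation or to BMP signals were among the lower genes. *Id1*, a BMP target, measured 37.1, 27.7 and 42.8 TPM in set A and 13.1, 4.32 and 8.42 TPM in set B, and *Id2* and *Id3* differed by −0.66 and −0.84. Of 33 genes of the WNT, BMP, Notch and FGF pathways compared 5 were higher and 4 lower without overlap, beside 9.89% higher and 14.9% lower over all genes. The higher members included the ligand genes *Tgfb2*, with 5.56, 5.41 and 3.34 TPM against 21.5, 13.9 and 45 TPM, and *Wnt5a*, with a difference of 1.51. Of 16 immediate early genes 1 was higher and 4 were lower, against the same shares. *Nr4a2*, a nuclear receptor, had 10.2, 10.1 and 10.5 TPM in set A and 3.81, 3.11 and 4.09 TPM in set B, a narrow spread within each set. *Fos* had 9.11, 6.69 and 7.01 TPM against 4.12, 1.43 and 2.96 TPM. *Npas4*, an activity-dependent factor, was the higher member, at 3.20, 4.66 and 8.10 TPM against 10.1, 15.8 and 10.5 TPM.

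Among genes that averaged 5 TPM or more, the largest difference belonged to *Rhox5*, a homeobox gene of the X chromosome that is normally restricted to reproductive tissue. *Rhox5* (ENSMUSG00000095180, chromosome X, 37804842 to 37808876) measured 284, 73.2 and 228 TPM in set A and 1.31, 0.580 and 2.03 TPM in set B, from 552 to 2257 reads against 4 to 15 reads. The ratio of means was 149 and the difference −6.25, with −5.98 within control and −6.71 within *Snd1* KO. Of 34 Rhox genes 5 passed the filter and 2 were lower without overlap, *Rhox5* and *Rhox2h*, beside 14.9% of all genes. The family is multicopy and its reads may be shared. Other genes with the largest lower values were *Gabrq*, a GABA receptor subunit, with 14.6, 14.6 and 21.2 TPM against 1.31, 0.174 and 0.459 TPM, and *Itm2a*, a membrane protein gene, with 16.6, 13.0 and 9.33 TPM against 0.695, 2.54 and 0.108 TPM. *Angptl8*, a regulator of lipoprotein lipase, had 11.9, 47.6 and 43.0 TPM against 3.97, 1.63 and 1.95 TPM. The rest of the 15 largest were *Rnf138rt1*, *Prokr1*, *Epdr1*, *Ildr2*, *Cthrc1*, *Hvcn1*, *Etv5*, *Ndn*, *Glra1*, *Slc41a2* and *Tmlhe*, with differences from −3.38 to −2.44. *Rnf138rt1* had 16.6 TPM in Control 3, near the 22.4 to 28.5 TPM of set A, and 0 in *Snd1* KO 2 and *Snd1* KO 3.

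*Barx2*, another homeobox gene, led the higher genes. It measured 0, 0 and 0.492 TPM in set A, from at most 5 reads, and 10.1, 15.8 and 18.2 TPM in set B, from 98 to 191 reads, with a difference of 3.74. *Pamr1*, a secreted protease-like gene, had 0.0226, 0 and 1.78 TPM against 8.54, 20.6 and 17.7 TPM. *Defb1*, a defensin, had 19.8, 13.7 and 4.22 TPM against 87.6, 58.8 and 60.9 TPM. The set values of these genes were far apart in both genotypes. Besides *Gfra1*, *Nrtn*, *Dbh*, *Kcnq3*, *Tgfb2*, *Kcnf1* and *Kcnd2* described above, the 15 largest held *Zdhhc22*, with a difference of 1.98, and *Catsperd*, with 1.75. The microRNA gene models *Mir6993* and *Mir344c* are also among them and rest on 0 to 12 reads per clone. Their differences of 2.63 and 1.88 were 1.69 for *Mir6993* without Control 1, and 1.23 and 1.09 for *Mir344c* without Control 2 and without *Snd1* KO 2.

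The X chromosome held 606 of the genes compared, or 3.40%. It carried 30 of the 268 lower genes, or 11.2%, and 7 of the 308 higher genes, or 2.27%. Of its genes 4.95% were lower by the criterion of at least 1, beside 1.5% of all genes. The median over its genes was −0.14, with −0.29 within control and −0.06 within *Snd1* KO, beside −0.02, −0.12 and 0.03 over all genes. Members included *Rhox5*, *Gabrq*, *Itm2a*, *Sytl5* and *Dcx*, a microtubule protein gene at 150, 138 and 109 TPM in set A and 67.5, 46.3 and 68.5 TPM in set B. *Pou3f4*, an alpha cell factor of the same chromosome, had 1.91, 1.69 and 1.59 TPM against 0.0690, 0 and 0 TPM. Copy number of the X chromosome was not measured, and its part was not tested. Elsewhere the imprinted genes *Ndn* and *Mkrn3*, neighbors on chromosome 7, were lower. *Mkrn3* had 3.56, 2.38 and 2.05 TPM against 0, 0 and 0.0737 TPM, from 27 to 52 reads against 0 to 1.

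**Figure D5:**
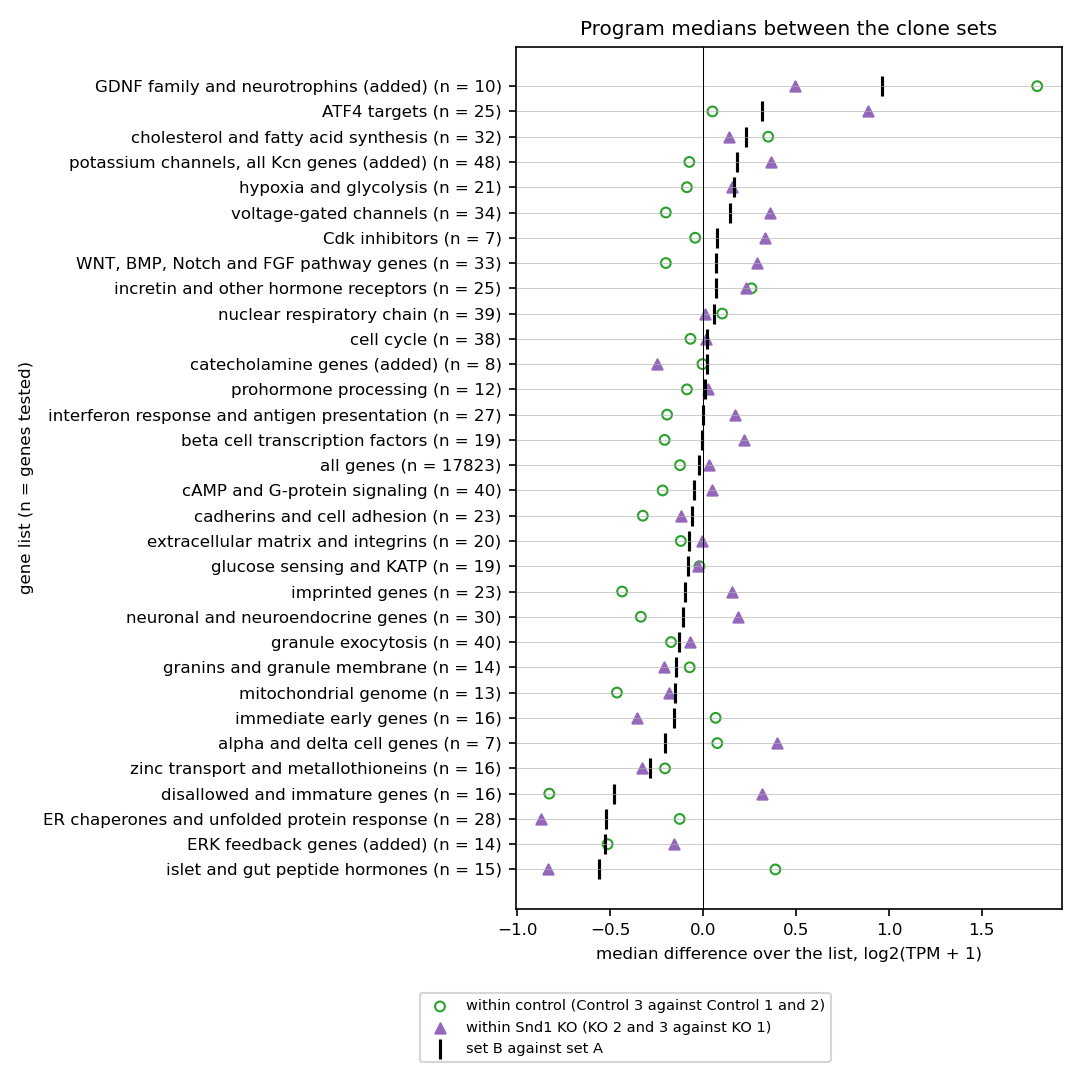
Median difference over each gene list in log2(TPM + 1) for set B against set A (black bar), within control (green circle) and within *Snd1* KO (purple triangle), with the number of genes compared in parentheses. Cholesterol synthesis and GDNF genes are above the medians of all genes (−0.12 within control and 0.03 within *Snd1* KO) and ERK feedback and zinc genes below them in both genotypes, ER genes are at the all-gene median within control and below it within *Snd1* KO, while hormones, disallowed genes and voltage-gated channels have medians of opposite sign in the genotypes.

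Genotype was the comparison given by the labels and was tested on the same genes with limma. It gave 1 call among 17823 genes, or 0.00561%, at an adjusted p-value under 0.05 and at least 2-fold, and 1419 genes had an unadjusted p under 0.05. Clone quality weights gave 895 calls, and the replicate block gave 0 calls with 1195 genes at an unadjusted p under 0.05. The called gene, the gene model *Gm24966* on chromosome 7, was named after its value was seen. *Gm24966* measured 75.1, 76.8 and 66.5 TPM in Control 1, 2 and 3, and 2.45, 5.09 and 2.37 TPM in *Snd1* KO 1, 2 and 3 (log2 change −4.15, limma adjusted p = 0.0178). Leaving out any clone other than *Snd1* KO 2 left 0 calls in limma, with between 760 and 2544 genes at an unadjusted p under 0.05. *Snd1* itself changed by −2.11 with a standard error of 0.45 (limma adjusted p = 0.511, and from 0.0195 to 0.983 over the alternatives). For *Ins1* the change was 0.59 with a standard error of 0.69 (limma adjusted p = 0.836), for *Mafa* −0.27 with 0.37 (limma adjusted p = 0.862) and for *Glp1r* −0.96 with 0.29 (limma adjusted p = 0.568). An exact permutation test of 3 clones against 3 cannot go below p = 0.1, the value reached by *Snd1* and *Glp1r*. These p-values measure only the spread between these clones.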

How the data were processed

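RNA profiles of 6 clonal lines were analysed, with groups and clone numbers from the labels. Libraries were made with Takara cDNA synthesis and Nextera XT and sequenced as paired ends. Reads were handled on the Genialis platform, and the authors deposited 1 TPM value for each gene in each clone. The submitters' processing notes name FastQC, Trimmomatic, HISAT2, HTSeq and the build mm10, without versions. Lengths behind TPM were summed over all exons of all transcripts, so levels of different genes were not compared. With these lengths between 93.3% and 93.8% of the values above 0 were whole numbers of reads within 0.01, which gave the depth and covers counting error only. A count of 3 reads corresponds to between 0.0945 and 0.109 TPM at the median length.

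GENCODE M21 (GRCm38) held 53706 of 53801 mouse gene IDs, and 95 were not in it. The 92 ERCC and 7 SIRV control rows were left out. Genes averaging 0.5 TPM or more over the clones were kept, and their deposited values were taken to log2(TPM + 1). Genes were counted where the 3 values of one clone set lay apart from the 3 of the other, and again with a difference of at least 1. Genotype was tested with limma 3.58.1 under R 4.3.3, with the prior variance fitted as a trend over mean level, and p-values were adjusted by Benjamini and Hochberg's method over all 17823 genes, and single genes by exact two-sided permutation tests. The limma fit was tested on simulated data. Promoters were taken from RefSeq (GRCm38.p6) by symbol and matched 523 of 688 list genes. Python 3.11.15, numpy 2.4.6, pandas 2.3.3 and matplotlib 3.10.9 were used.

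The clone sets, gene lists and tests were chosen with earlier results of these data known. Named genes were 10 fixed β cell genes, the 15 genes per direction with the largest difference among those averaging 5 TPM or more, sets that do not overlap and a symbol that is no Gm number, Rik clone or pseudogene, list members apart by at least 1, and further members as examples. *Qpct* was chosen after its values were seen. Alternatives were a pseudocount of 0.1, a filter at 5 TPM, no filter, quantile normalization, median ratio scaling, clone quality weights, a replicate block and leaving out each clone in turn. Centring on the median gene was added after seeing the data. Data of other assays of the study were not used here. Some members of the lists are counted but not reported here by name.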

Additional observations from a re-analysis of the deposited data

Results flagged for a closer look

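ERCC spike-in controls, which no comparison used, were at 0 in 5 clones and reached 1.02 TPM in Control 3, from 1 of 92 control rows. The signal was singled out because it lies in rows outside the main measurement, and the other 2 control clones had none.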

How the results depend on the processing

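The counts of 308 higher and 268 lower genes became 531 and 444 with a pseudocount of 0.1, and 122 and 142 with a mean of at least 5 TPM, where 11368 genes were compared. They were 288 and 303 after quantile normalization, 324 and 248 after median ratio scaling and 364 and 253 after centring on the median gene, which was chosen after seeing the data. Leaving out each clone in turn gave between 313 and 675 higher and between 276 and 521 lower genes. Without Control 3 there were 675 higher and 391 lower, and without *Snd1* KO 1 there were 539 and 521. With fewer clones per set the values lie apart more easily. The share of higher calls was 53.5%, with 46.2% at a mean of at least 5 TPM and 63.3% without Control 3. Of the differences of named genes, 672 of 690 alternatives moved by less than the spread between clones, the SD pooled over the sets. Leaving out 1 of the 3 clones of a set cannot move its mean by more than that spread. Those alternatives were therefore fixed in advance to count as unmoved. The median of the cholesterol list lay between 0.15 and 0.38 with each clone left out, the higher value without *Snd1* KO 1, and that of the ATF4 targets was −0.02 without that clone. *Ins2* changed sign in 1 and *Snd1* in 3 of 10 alternatives, and both overlapped between the sets.

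The genotype call in limma was lost without a filter (0 calls, 1803 genes at an unadjusted p under 0.05), and clone quality weights gave 895. With 1 clone left out there were between 0 and 1 calls, a call remaining without *Snd1* KO 2. With the replicate block by clone number there were 0 calls at an adjusted p under 0.05 in limma and 1195 genes at an unadjusted p under 0.05. Clones with the same number did not deviate together (r across genes 0.051, −0.122 and −0.074). Whether clones with the same number were handled together was not tested. For all of these the cause was not tested. Depth limits genes with few reads such as *Barx2* and *Mkrn3* in one set, and the number of clones limits the others.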

Other observations

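For the counts that follow, 9.89% of all genes were higher and 14.9% lower in set B without overlap. Of 38 cell cycle genes compared 5 were higher and 1 lower in set B without overlap, with a median of 0.02. The lower member was *Ccnd2*, the D-type cyclin of β cells, at 707, 825 and 686 TPM in set A and 633, 255 and 416 TPM in set B. None of the 7 Cdk inhibitors compared stood apart. Nuclear respiratory chain genes had 6 of 39 higher and 0 lower, with a median of 0.06, and the 13 mitochondrial genome genes a median of −0.15, which was 0.07 without Control 3, the one clone with a low list median. Of 27 interferon and antigen presentation genes 2 were higher and 3 lower, among them *Oas1a*, an antiviral enzyme, at 3.70, 4.49 and 3.60 TPM in set A and 2.79, 0.107 and 0.0995 TPM in set B. Hypoxia and glycolysis genes had 3 of 21 higher and 3 lower, and the lactate exporter gene *Slc16a3* was at 0.635, 0.386 and 1.27 TPM against 1.91, 5.09 and 6.67 TPM.

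Genes disallowed in β cells or typical of immature cells had a median of −0.48 over 16 genes, with −0.83 within control and 0.32 within *Snd1* KO, and −0.27 without Control 3. *Acot7*, an acyl-CoA thioesterase, measured 4.83, 2.38 and 2.57 TPM in set A and 0.430, 0.275 and 0.428 TPM in set B. Among 23 cadherin and adhesion genes 0 were higher and 3 lower, including *Nrxn2*, a presynaptic adhesion gene, at 11.7, 14.1 and 4.90 TPM against 3.60, 1.56 and 2.72 TPM. Matrix and integrin genes had 1 of 20 higher and 4 lower, imprinted genes 0 of 23 higher and 3 lower, and neuronal genes 3 of 30 higher and 5 lower. Of 7 alpha and delta cell genes compared 1 was higher and 1 lower. The higher one was *Gc*, the vitamin D binding protein gene, with 80.9, 66.2 and 239 TPM in set A and 326, 253 and 395 TPM in set B. The urocortin gene *Ucn3*, a marker of mature mouse β cells, was near 0 in 5 clones and at 41.6 TPM in *Snd1* KO 1.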
